A study of Arabidopsis thaliana with 4 samples.

Results

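In 12-day-old seedlings of Arabidopsis thaliana, 105 genes annotated as transposable elements reached a mean FPKM of at least 0.5 over 4 libraries. They were 105 of 3900 rows described as transposable element genes and of 33602 rows in all, and they were chosen by their mean FPKM over all 4 libraries. FPKM is a count of sequenced fragments divided by the length of the transcript and by the size of the library, so it can be compared between genes. The groups were jmj28-3 seedlings and wild type seedlings (WT, accession Col-0), with 2 libraries of polyadenylated RNA each, from whole seedlings grown in long days on medium with sucrose. JMJ28 carries a jumonji domain, as histone demethylases do, and belongs to the family of the histone H3K9 demethylase IBM1. The labels name a single line, jmj28-3, without the kind of lesion, and nothing in them tells whether the replicates were grown apart. P-values therefore cover only the spread between these libraries, which may be technical.

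A transposable element is a stretch of DNA that can, or once could, move or copy itself within a genome. In plants most copies are held silent by DNA methylation and by methylation of lysine 9 on histone H3, and small RNAs help to place these marks. A minority are transcribed in ordinary tissue. Some of those are old elements that lie among genes, and some have become host genes, as the MUSTANG genes did from transposases of the Mutator group. The Sadhu elements are short retrotransposons of Arabidopsis that code for no protein, and individual copies are known to be expressed in some natural accessions and silent in others.

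The Sadhu family held 16 rows, of which 10 reached the minimum. It carried the highest single value and 2 of the 6 differences between genotypes that passed the test. Of these, SADHU3-2 reached the minimum through WT alone and so had to be lower in jmj28-3. The family's sequences are shown first because copies sharing a stretch at their start ranged in level from 0 to the highest of all members. The starts below are the first 90 bases of each annotated gene, 5′ to 3′ on its own strand, from the RefSeq annotation of TAIR10.1. The capitals mark the 10-base word CAATCGTTCC. SADHU3-2 (chr3:14749400-14750294, minus strand) was lower in jmj28-3. SADHU3-1 (chr3:15813075-15814056, minus strand) was listed at 0 in all 4 libraries. SADHU1-1 (chr2:4005995-4007044, minus strand) was the highest member, SADHU5-1 (chr4:660810-661698, plus strand) also carried the word, and SADHU10-1 (chr3:21765879-21766823, plus strand), the other Sadhu member that differed, did not hold it.
SADHU3-2: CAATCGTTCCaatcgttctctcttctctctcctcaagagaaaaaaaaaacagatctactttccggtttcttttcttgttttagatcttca
SADHU3-1: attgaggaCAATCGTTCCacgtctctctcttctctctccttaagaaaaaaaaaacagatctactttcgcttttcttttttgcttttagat
SADHU1-1: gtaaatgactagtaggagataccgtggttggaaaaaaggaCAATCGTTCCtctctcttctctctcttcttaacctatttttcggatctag
SADHU5-1: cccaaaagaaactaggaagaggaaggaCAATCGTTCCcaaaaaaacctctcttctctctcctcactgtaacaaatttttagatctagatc
SADHU10-1: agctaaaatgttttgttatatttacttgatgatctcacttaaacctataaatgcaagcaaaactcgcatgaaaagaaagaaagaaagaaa
The word was found, on either strand, in the first 120 bases of 7 of the 16 Sadhu elements (43.8%). It was found there in 0 of 3884 other transposable element genes and in 2 of 28935 other nuclear genes. SADHU3-2 and SADHU3-1 were identical at 80.1% of 914 aligned bases, yet SADHU3-2 had FPKM values above 0 in every library and SADHU3-1 in none.

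A second word, CGGCGGAAGT, lay further inside and was one that SADHU10-1 shared with other copies. The 40 bases around it are given with the word in capitals.
SADHU10-1: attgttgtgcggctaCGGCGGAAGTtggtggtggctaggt
SADHU3-2: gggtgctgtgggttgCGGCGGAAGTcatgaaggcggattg
SADHU3-1: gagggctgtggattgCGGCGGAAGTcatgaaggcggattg
It was found in the first 600 bases of 10 of 16 Sadhu elements (62.5%), 2 of 3884 other transposable element genes and 47 of 28935 other nuclear genes. Both words were picked after the Sadhu sequences had been compared, so these shares describe the family and are no test. Neither word separated copies listed at 0 from expressed copies. SADHU9-1 and SADHU3-1 held both words and were listed at 0 throughout, while SADHU2-1 held both with a mean of 13.3 FPKM. SADHU7-2 held neither word on its own strand and was also listed at 0. The highest Sadhu copies, SADHU1-1, Sadhu4-2 and SADHU1-2, lacked the second word.

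The members were mostly low. Their median mean FPKM was 2.10, with 18 members at 10 or more, 62 between 1 and 10, and 25 between 0.5 and 1. All but 1 were above 0 in all 4 libraries. They lay on every chromosome, with 26, 15, 24, 14 and 26 on chromosomes 1 to 5. RefSeq annotates 103 of them as pseudogenes and 2, MUG3 and MUG7, as protein-coding, and 91 of 105 had a single exon. At the edge of the rule stood AT1G21220, AT1G34842 and AT2G26630, with means of 0.538, 0.528 and 0.523. Just outside it were AT4G08115, AT5G13205 and AT3G43715, with means of 0.475, 0.450 and 0.435.

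SADHU1-1 alone held 18.2% to 20.1% of the members' summed FPKM in a library. It had 98.42 and 111.31 FPKM in jmj28-3 and 117.14 and 107.66 FPKM in WT. The genotypes overlapped, and the log2 change was -0.10 (SE 0.0794, limma adjusted p = 0.503). The next highest member, EXT11, averaged 22.2 FPKM, so the level dropped steeply after the first. The 10 highest members together held 44.5% to 45.0% of the sum.

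Below EXT11 the order was close. Sadhu4-2 had 16.86 and 19.16 FPKM in jmj28-3, against 21.22 and 20.33 FPKM in WT. It lies on the strand opposite to the protein-coding gene 2A6 and overlaps it by 1020 bases. 2A6 had 4.37 and 3.47 FPKM in jmj28-3 and 3.92 and 3.36 FPKM in WT, and the sources used here do not state whether the counting used strand, so reads of the pair cannot be told apart. AT2G13975 had 17.37 and 17.91 FPKM in jmj28-3 and 20.06 and 19.29 FPKM in WT. AT1G35612, annotated as a pseudogene of the Ulp1 protease family, had 15.87 and 18.01 FPKM in jmj28-3, against 12.48 and 14.06 FPKM in WT (log2 change 0.33, limma adjusted p = 0.115). The remaining 5, AT3G28160, SADHU1-2, AT4G07507, MUG4 and AT1G35115, had means of 13.4 to 14.7 FPKM. None of the 9 members in this group other than EXT11 passed the test, and from EXT11 down the library values of neighbours in the order overlapped.

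**Figure D1:**
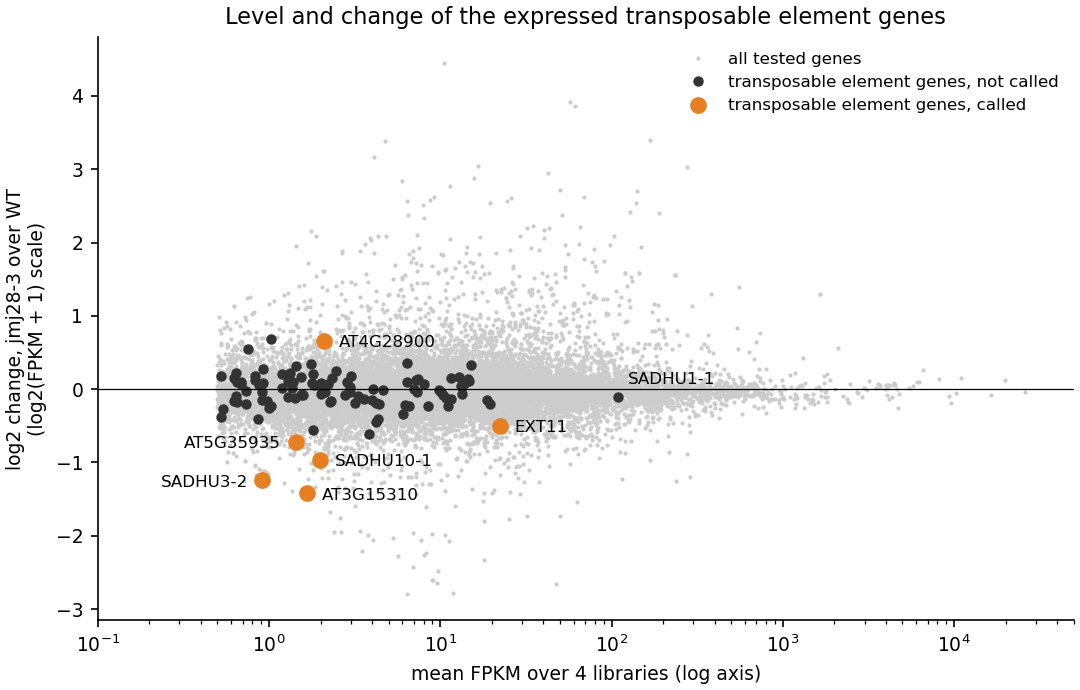
Mean FPKM over 4 libraries (log axis) against the log2 change of jmj28-3 over WT on the log2(FPKM + 1) scale, for 20232 tested genes (grey), 99 members that did not pass the test (black) and 6 that did (orange). The members sit in the lower part of the range of levels, SADHU1-1 stands apart at 109 FPKM, and 5 of the 6 called members lie below 0.

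Between genotypes the members as a whole were close. Of 105 members, 1 was higher and 5 were lower in jmj28-3 by limma on log2(FPKM + 1) with Benjamini-Hochberg adjustment over all tested genes at 0.05. Among all 20232 tested genes, 7.97% passed in either direction, 4.18% higher and 3.79% lower. The members' shares were 5.71% in either direction, 0.952% higher, which rests on 1 gene, and 4.76% lower. Their median log2 change was -0.03, with quartiles of -0.16 and 0.11, and over all tested genes it was -0.03, with quartiles of -0.16 and 0.10. The typical member changed by 0.15 in size (median), a difference between means of 2 libraries. Single replicates of a genotype differed by a median of 0.12 in each genotype, so these values are not directly comparable. Over all tested genes the median change was 0.13 in size, and replicates differed by 0.10 in jmj28-3 and 0.11 in WT.

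Values without overlap were common in both directions. Both jmj28-3 libraries were above both WT libraries in 22 members (21.0%), against 22.4% of tested genes. Both were below in 34 members (32.4%), against 32.7% of tested genes. A log2 change of at least 0.5 in size was seen in 9 members (8.57%) and in 8.92% of tested genes.

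The members' summed FPKM was 540.78 and 566.80 in jmj28-3 and 584.21 and 578.17 in WT. The jmj28-3 mean was 553.79 ± 18.4 and the WT mean 581.19 ± 4.27 (SD, n = 2 each), and the groups did not overlap. The exact two-sided permutation p was 0.333, the smallest that 2 libraries against 2 can give. Without SADHU1-1 the sum was 442.36 and 455.49 in jmj28-3 and 467.07 and 470.51 in WT. Both sums hold 4 members that reached the minimum through WT alone and 2 through jmj28-3 alone, so they are descriptions. With SADHU1-1 included, the members made up 0.0545% to 0.0592% of all FPKM in a library.

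The 6 called members are described next, each with its place in TAIR10.1. A member that reached the minimum through WT alone had to differ, which holds for AT3G15310, SADHU3-2, AT1G21220 and AT2G26630. It holds in the other direction for AT5G34810 and AT1G34842, whose WT means were under 0.5. The count of 6 is therefore a description.

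AT3G15310 (chr3:5152099-5153642, minus strand, 1 exon) was 6.47-fold lower in jmj28-3. It had 0.49 and 0.40 FPKM in jmj28-3, against 3.17 and 2.59 FPKM in WT. Both jmj28-3 libraries lay far below both WT libraries, and the log2 change was -1.42 (SE 0.154, limma adjusted p = 0.00833). Much of the gene is not unique, since 47.5% of its 32-base words occur again in the genome, and AT5G32621 is 98.0% identical to it over 1174 bases. AT5G32621 had 0.02 and 0.00 FPKM in jmj28-3 and 0.03 and 0.08 FPKM in WT. How the counting shared reads that fit both genes is not stated in the labels. The nearest gene that is no transposable element, AT3G15300, lies 3759 bases away and had 6.0 and 7.57 FPKM in jmj28-3 and 7.41 and 7.16 FPKM in WT. The call was lost without WT replicate 1 (limma adjusted p = 0.0593), without jmj28-3 replicate 1 (0.0748) and without jmj28-3 replicate 2 (0.0938).

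SADHU3-2 (chr3:14749400-14750294, minus strand, 1 exon) was the member with the largest ratio between genotypes. It had 0.19 and 0.07 FPKM in jmj28-3, against 1.31 and 2.09 FPKM in WT. The mean was 13.1-fold lower in jmj28-3, 24.3-fold without jmj28-3 replicate 1 and 8.95-fold without jmj28-3 replicate 2, and the log2 change was -1.24 (SE 0.206, limma adjusted p = 0.0269). Only 0.463% of its 32-base words are repeated, so exact matches of that length elsewhere are few. Its sequence is still shared in diverged form with SADHU3-1, at 80.1% identity over 914 aligned bases. RefSeq notes of this locus, and equally of SADHU3-1, that its allele is silenced and methylated in certain natural accessions. The gene next to it, AT3G42660, lies 986 bases away and had 7.36 and 7.0 FPKM in jmj28-3 and 7.84 and 7.43 FPKM in WT. The depth of the libraries is unknown, so no counting interval can be set on values this low. The call was lost when any 1 of the 4 libraries was left out, and with replicate number added to the fit as a block.

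SADHU10-1 (chr3:21765879-21766823, plus strand, 1 exon) lies among ordinary genes, with 0 transposable element genes among its 10 neighbours on each side. It had 1.32 and 0.76 FPKM in jmj28-3, against 2.89 and 3.00 FPKM in WT. The mean was 2.83-fold lower in jmj28-3, without overlap (log2 change -0.97, SE 0.176, limma adjusted p = 0.0342). On the opposite strand it overlaps AT3G58875, a protein-coding gene of the annotation not analysed here, by 466 bases, and the reads of an overlapping pair cannot be told apart without strand. The nearest gene with values, AT3G58860, was at 0.04 and 0.13 FPKM in jmj28-3 and 0.00 and 0.08 FPKM in WT. The call was lost when any 1 library was left out, where the fold ran from 2.23 to 3.88. It was also lost with replicate number as a block, with no minimum level (limma adjusted p = 0.0646) and with no variance trend (0.0537).

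AT5G35935 (chr5:14083388-14089891, minus strand, 1 exon of 6504 bases) had 0.85 and 0.82 FPKM in jmj28-3, against 1.85 and 2.19 FPKM in WT. It was 2.42-fold lower in jmj28-3 (log2 change -0.72, SE 0.146, limma adjusted p = 0.0461). The jmj28-3 libraries were nearly equal and both lay below WT. Its neighbour AT5G35940, 683 bases away on the other strand, had 2.58 and 2.78 FPKM in jmj28-3 and 1.63 and 2.17 FPKM in WT. In that neighbour jmj28-3 was above WT without overlap, as in 22.4% of tested genes. The call was lost when any 1 library was left out, where the fold ran from 2.22 to 2.62. It was also lost with replicate number as a block and under quantile normalization (limma adjusted p = 0.0564).

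EXT11 (chr5:19890784-19892809, minus strand, 1 exon) carries the name of an extensin, a structural protein of the plant cell wall, although the table describes it as a transposable element gene. It had 18.73 and 17.60 FPKM in jmj28-3, against 23.70 and 28.69 FPKM in WT. The log2 change was -0.50 (SE 0.105, limma adjusted p = 0.0497), and the mean was 1.44-fold lower in jmj28-3. In this gene 54.6% of the 32-base words are repeated, within the gene or outside it, which was not told apart. AT4G08410, 88.2% identical over 1814 bases, had 19.65 and 21.16 FPKM in jmj28-3 and 24.45 and 28.41 FPKM in WT. The summed FPKM of 3 root markers was also lower, at 38.21 and 38.59 in jmj28-3 and 41.93 and 49.79 in WT, and its part in the result was not tested. In whole seedlings fewer cells of a type and less RNA per cell cannot be told apart. The call was lost when any 1 library was left out (limma adjusted p from 0.0654 to 0.288). It was also lost under median-of-ratios scaling (0.0599), quantile normalization (0.0536), no minimum level (0.0964), no variance trend (0.0998) and with replicate number as a block.

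AT4G28900 (chr4:14259141-14263704, plus strand, 1 exon) was the called member that was higher in jmj28-3. It had 2.84 and 2.75 FPKM in jmj28-3, against 1.44 and 1.38 FPKM in WT, a 1.98-fold difference with replicates close in both genotypes. The log2 change was 0.66 (SE 0.125, limma adjusted p = 0.0387). Its closest relative by sequence, AT4G10690, is also a member and is 70.9% identical over 1659 bases. AT4G10690 had 1.28 and 1.12 FPKM in jmj28-3 and 1.59 and 1.16 FPKM in WT. NINJA, a repressor of jasmonate signalling, lies 330 bases from AT4G28900 on the opposite strand and had 27.77 and 27.60 FPKM in jmj28-3 and 29.21 and 27.63 FPKM in WT. The call was lost when any 1 library was left out, and with replicate number as a block. It was also lost with no minimum level (limma adjusted p = 0.0502) and with a minimum mean of 2 (0.0538).

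**Figure D2:**
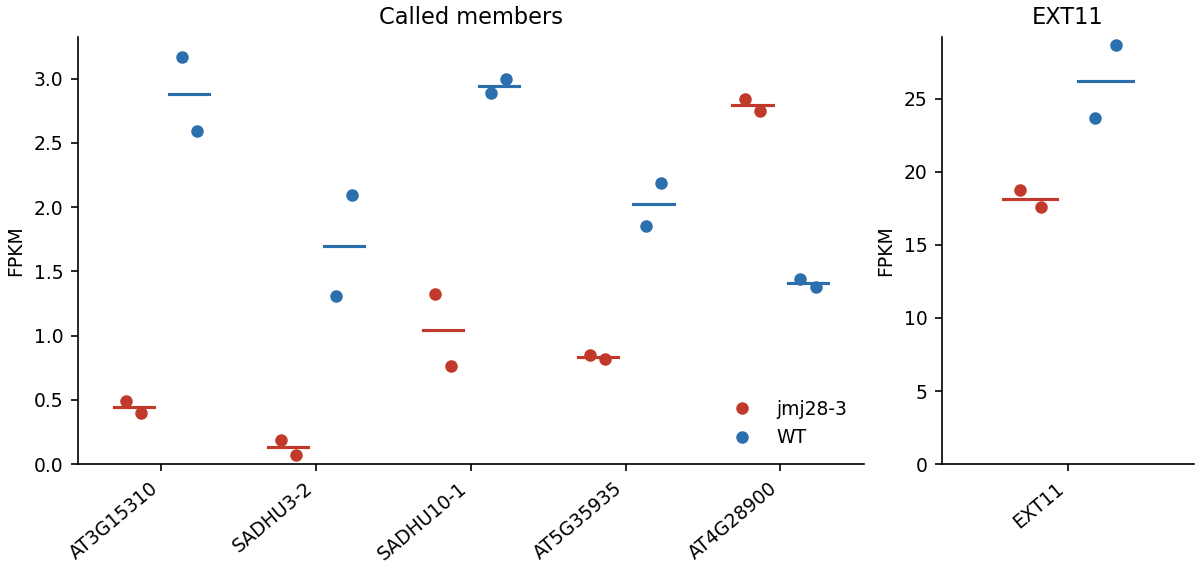
FPKM of the 6 called members by library, with jmj28-3 in red left of WT in blue; points are libraries and bars are means of 2. The genotypes do not overlap in any of the 6, which their choice by the test favours, and AT4G28900 is the one with jmj28-3 above WT. Among tested genes, values without overlap were above WT in 22.4% and below in 32.7%.

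Other members had large differences in value that did not pass the test. AT1G58561 had 2.17 and 3.51 FPKM in jmj28-3, against 5.42 and 4.23 FPKM in WT (log2 change -0.62, limma adjusted p = 0.145). It lies within AT1G58602 on the same strand, which had 21.67 and 24.17 FPKM in jmj28-3 and 28.59 and 25.87 FPKM in WT, so their reads may be shared. AT5G53815 had 1.79 and 1.07 FPKM in jmj28-3 and 0.00 and 1.23 FPKM in WT (log2 change 0.69, limma adjusted p = 0.366, and 0.11 without WT replicate 1, the library at 0).

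AT5G38870 had 7.60 and 6.98 FPKM in jmj28-3 and 5.78 and 5.16 FPKM in WT, without overlap (log2 change 0.36, limma adjusted p = 0.105). AT5G35777 had 2.15 and 2.01 FPKM in jmj28-3 and 1.27 and 1.6 FPKM in WT (log2 change 0.34, limma adjusted p = 0.224). AT5G34810 had 0.98 and 1.17 FPKM in jmj28-3 and 0.23 and 0.64 FPKM in WT (log2 change 0.55, limma adjusted p = 0.183). This last gene forms a row on chromosome 5 with the members AT5G34790 and AT5G34800, 2988 and 1595 bases apart. AT5G34790 had 1.67 and 1.73 FPKM in jmj28-3 and 1.17 and 1.18 FPKM in WT, and AT5G34800 had 0.97 and 1.23 FPKM in jmj28-3 and 0.70 and 0.77 FPKM in WT. Neither passed the test, with limma adjusted p of 0.241 for AT5G34790 and 0.370 for AT5G34800, and this row was singled out after its values were seen.

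Within the Sadhu family 2 of 10 members, SADHU3-2 and SADHU10-1, were lower in jmj28-3 and 0 were higher by limma. The shares over all tested genes were 3.79% and 4.18%. SADHU3-2 reached the minimum through WT alone and so had to be lower, which makes this count a description and no test. An unadjusted p under 0.05 was seen in 3 of 10, against 24.2% of tested genes. Log2 changes were below 0 in 7 of 10 members, and in 6 of 10 under quantile normalization or without WT replicate 1, against 56.6% of tested genes. Their median was -0.15, against -0.03 over all tested genes, and it was -0.09 without WT replicate 1 and -0.24 without WT replicate 2. With a minimum mean of 2, which leaves out SADHU3-2 and SADHU10-1, the median was -0.07, against -0.03 over all tested genes. In that setting 5 of 8 Sadhu members were below 0. SADHU4-1 had 5.82 and 5.52 FPKM in jmj28-3 and 7.11 and 6.35 FPKM in WT. SADHU5-1 had 3.56 and 3.59 FPKM in jmj28-3 and 4.62 and 5.52 FPKM in WT (log2 change -0.40, limma adjusted p = 0.110), and 67.4% of its 32-base words are repeated.

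Other Sadhu copies were flat or leaned the other way. SADHU1-2 had 15.84 and 14.62 FPKM in jmj28-3 and 13.30 and 14.04 FPKM in WT. SADHU2-1 had 13.13 and 13.88 FPKM in jmj28-3 and 13.08 and 12.98 FPKM in WT. SADHU1-3 had 2.74 and 3.32 FPKM in jmj28-3 and 2.95 and 2.92 FPKM in WT. All 3 log2 changes were under 0.15. SADHU7-1 had 2.42 and 1.73 FPKM in jmj28-3 and 2.66 and 1.69 FPKM in WT, and it overlaps AT3G13440 on the opposite strand over 1075 bases.

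Of the 6 Sadhu rows below the minimum, SADHU9-1, SADHU8-1, SADHU7-2 and SADHU3-1 were listed at 0 in all 4 libraries. SADHU6-1 was listed at 0 in both jmj28-3 libraries and had 0.24 and 0.15 FPKM in WT. SADHU5-2 was listed at 0 in 3 libraries and had 0.27 FPKM in WT replicate 1. The Sadhu members summed to 160.30 and 173.96 FPKM in jmj28-3 and 186.28 and 176.58 FPKM in WT. Without SADHU1-1 the sum was 61.88 and 62.65 FPKM in jmj28-3 and 69.14 and 68.92 FPKM in WT (exact two-sided permutation p = 0.333, the smallest possible). Both sums hold SADHU3-2, which reached the minimum through WT alone, so they are descriptions.

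The MUSTANG genes are transposase-derived host genes, and all 8 rows of the family were members. None passed the test in either direction by limma, against 7.97% of tested genes. MUG5 alone, 1 of 8 (12.5%), had an unadjusted p under 0.05, against 24.2% of tested genes. MUG5 had 5.08 and 5.42 FPKM in jmj28-3, against 6.84 and 7.0 FPKM in WT (log2 change -0.34, SE 0.0937, limma adjusted p = 0.0938). MUG2, the lowest of the family, had 0.37 and 0.84 FPKM in jmj28-3 and 1.07 and 1.15 FPKM in WT (log2 change -0.41, limma adjusted p = 0.285). MUG7 had 7.58 and 7.88 FPKM in jmj28-3 and 10.01 and 8.47 FPKM in WT.

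In these 3 genes and in MUG4 both jmj28-3 libraries were below both WT libraries, as in 32.7% of tested genes. In MUG1, MUG8, MUG6 and MUG3 the genotypes overlapped. Both jmj28-3 libraries were above both WT libraries in 22.4% of tested genes and in no MUSTANG gene. Log2 changes were below 0 in 7 of 8, and in 5 of 8 without jmj28-3 replicate 2, against 56.6% of tested genes. The family summed to 48.94 and 48.37 FPKM in jmj28-3 and 53.63 and 53.42 FPKM in WT (exact two-sided permutation p = 0.333, the smallest possible). CYTOSLEEPER, a gene derived from a transposase of the hAT group, had 0.93 and 0.70 FPKM in jmj28-3 and 0.97 and 1.04 FPKM in WT.

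**Figure D3:**
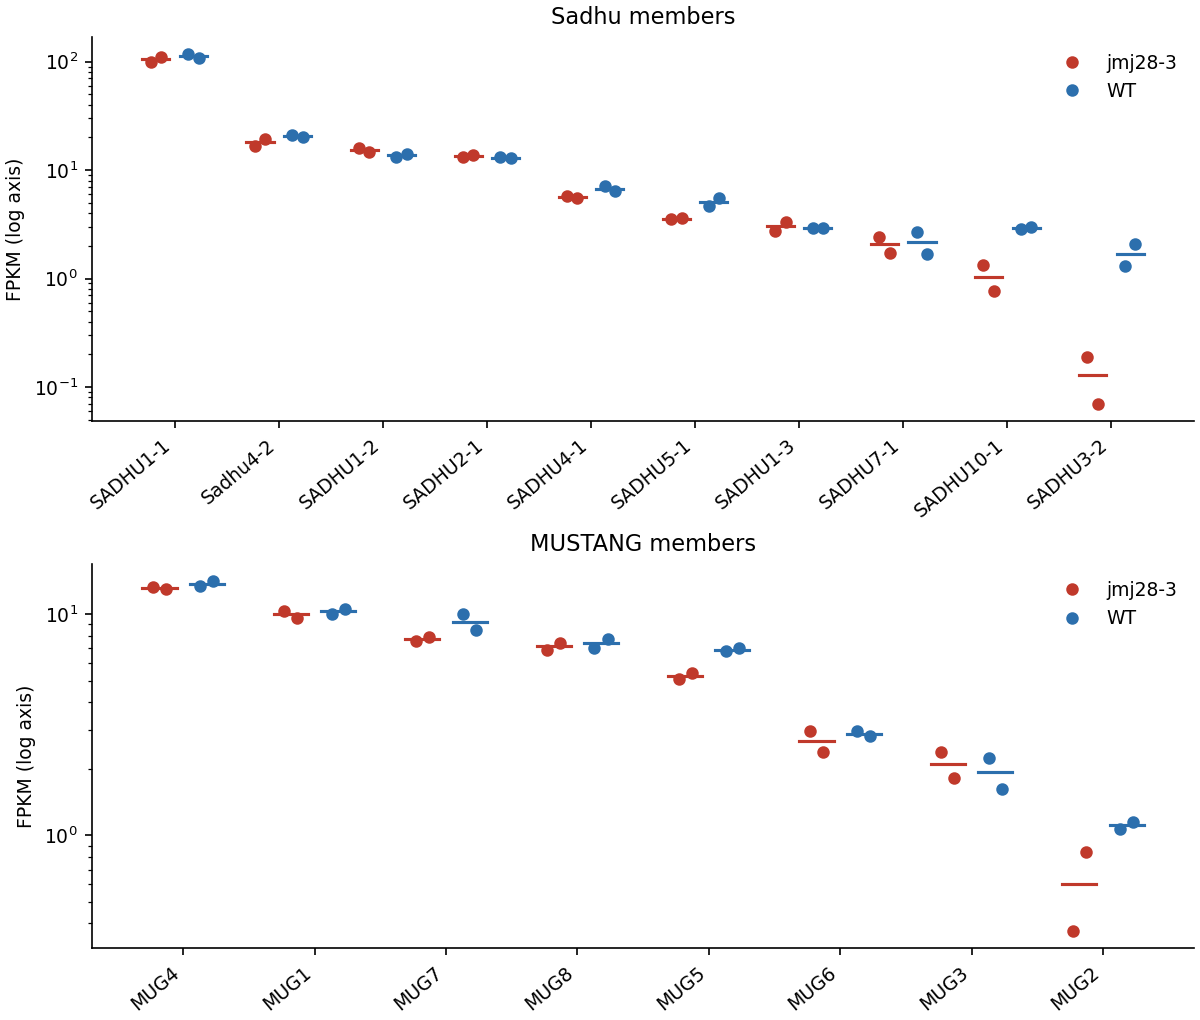
FPKM (log axis) of the 10 Sadhu members (top) and the 8 MUSTANG members (bottom), with jmj28-3 in red left of WT in blue; points are libraries and bars are means of 2. Within Sadhu the widest separations are at the low end, in SADHU10-1 and SADHU3-2, and the MUSTANG genes lie close together except MUG2.

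Members had lower median shares of repeated sequence and of transposable element neighbours than the transposable element genes below the minimum. A median of 1.69% of a member's 32-base words occurred again in the genome, within the gene or outside it. The median was 26.6% in 499 transposable element genes above 0 with means below 0.5 and 23.4% in 3296 listed at 0 in all libraries. How reads of repeated sequence were counted is not stated in the labels, and its part in which genes reached the minimum was not tested. Among the 10 nearest genes on each side, a median of 10% were transposable element genes for members, 40% for those above 0 below the minimum, and 70% for those at 0. The spread was wide: the quartiles of members ran from 0% to 55%. MUSTANG members had a median of 0% and Sadhu members 35%. Level chose the members, so these values carry no test.

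**Figure D4:**
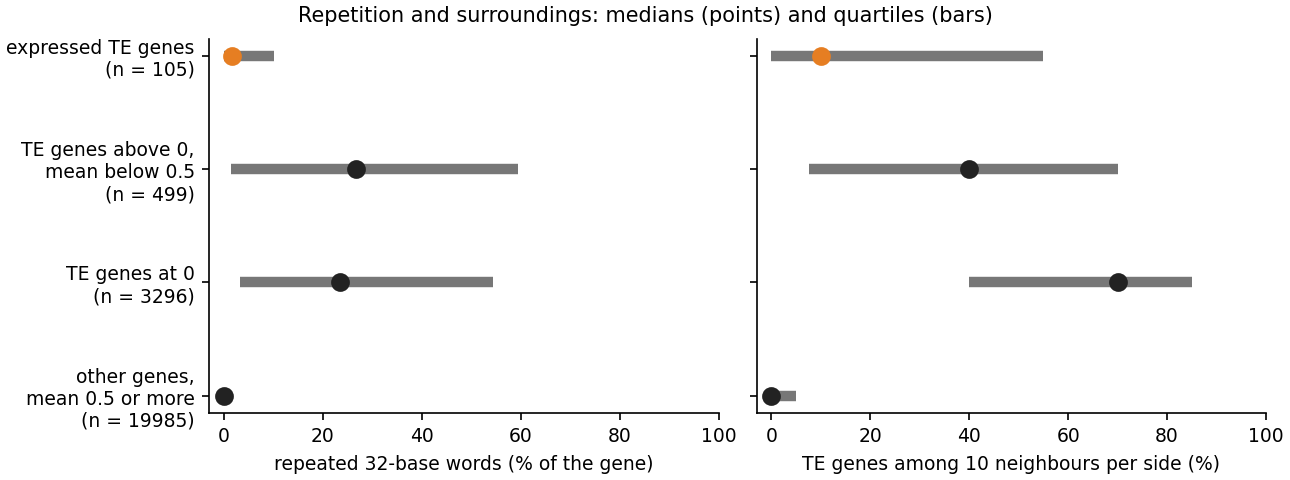
Share of repeated 32-base words (left) and share of transposable element (TE) genes among the 10 nearest genes on each side (right), as medians (points) with quartiles (bars) for 4 sets of genes. The expressed elements, with medians of 1.69% and 10%, lie between elements below the minimum and other genes.

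In all, 22 members overlapped another annotated gene, 10 of them a gene of the table that is no transposable element gene, and 22 had a gene elsewhere with at least 95% identity over at least 100 bases. AT4G21420, a member 292 bases from JMJ28 itself, had 0.73 and 0.72 FPKM in jmj28-3 and 0.76 and 0.53 FPKM in WT, and was singled out after its values were seen. JMJ28 (AT4G21430) had 3.65 and 3.33 FPKM in jmj28-3 and 3.8 and 5.54 FPKM in WT. The kind of lesion is not in the labels, so this level does not check the genotype.

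Rows of elements known to move in Arabidopsis had values below the minimum. Of 11 listed rows, which include copies of the heat-activated retrotransposon ONSEN, the retrotransposon EVD and the DNA transposon CACTA1, 0 were members. The ONSEN copy AT5G13205 came closest, with 0.45 and 0.72 FPKM in jmj28-3 and 0.27 and 0.36 FPKM in WT. The other 10 had at most 0.1 FPKM in any library. Of the 32-base words of these 11 rows, 62.7% to 100% occur again in the genome. How such reads were counted is not stated, so low values here do not show that the elements were silent. Below the minimum as a whole, 3296 of 3795 rows were listed at 0 in all libraries. The rest summed to 23.36 and 23.16 FPKM in jmj28-3 and 24.35 and 21.94 FPKM in WT. Of the low rows, 20 were above 0 in both jmj28-3 libraries and at 0 in both WT libraries, and 16 showed the reverse. Members held 95.9% to 96.3% of all FPKM of transposable element genes.

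No gene on a list of the silencing machinery passed the test. The list held 53 genes that place, read or remove silencing marks, the demethylases among them. Of these 49 were tested, and 0 were higher and 0 lower by limma, against 7.97% called among all tested genes. An unadjusted p under 0.05 was seen in 6 of 49, against 24.2% of tested genes, and the median log2 change was 0.01. By role these were 7 genes of DNA methylation, 17 of RNA-directed DNA methylation, 15 of H3K9 methylation and heterochromatin, 6 of post-transcriptional silencing and 4 of DNA demethylation. The 3 with the smallest p included ATXR6 and ATXR5, which both methylate lysine 27 of histone H3 in heterochromatin. ATXR6 had 2.08 and 1.86 FPKM in jmj28-3, against 3.88 and 2.94 FPKM in WT (log2 change -0.56, limma adjusted p = 0.0909). ATXR5 had 4.89 and 4.81 FPKM in jmj28-3 and 3.32 and 3.79 FPKM in WT (log2 change 0.36, limma adjusted p = 0.119). SHH1, which recruits RNA polymerase IV, had 6.35 and 7.38 FPKM in jmj28-3 and 5.21 and 5.16 FPKM in WT (log2 change 0.34, limma adjusted p = 0.125). The groups did not overlap in any of the 3, which their choice by smallest p favours. Over all tested genes jmj28-3 was above WT without overlap in 22.4% and below in 32.7%. ATXR6 and ATXR5 leaned in opposite directions.

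The chromatin remodeller DDM1 and the maintenance methyltransferase MET1 were named after their values were seen. DDM1 had 7.74 and 6.38 FPKM in jmj28-3 and 6.84 and 7.14 FPKM in WT, and MET1 had 11.60 and 11.34 FPKM in jmj28-3 and 10.90 and 11.19 FPKM in WT. Markers of pollen, seed and flower, tissues in which some elements are normally released, were near 0. The pollen markers summed to 0 FPKM in both jmj28-3 libraries and to at most 0.02 FPKM in WT. The seed markers reached 0.12 FPKM in jmj28-3 and 0.07 FPKM in WT, and the flower markers 0.25 FPKM in jmj28-3 and 0.34 FPKM in WT. Leaf markers summed to 50278 and 49801 FPKM in jmj28-3 and 51289 and 47808 FPKM in WT.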

How the data were processed

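Polyadenylated RNA of whole seedlings was measured in 4 libraries, 2 per genotype. The authors deposited FPKM per gene, with TopHat, RSEM and edgeR as tools and TAIR10 as build, per the submitters' processing notes. No source used here states versions, settings, strand use or library depth. Columns were matched to libraries by their labels, with 0 left over.

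FPKM hold no counts, so log2(FPKM + 1) was tested with limma 3.58.1 in R 4.3.3, two-sided, on the 20232 genes with a mean of at least 0.5. Genotype was the only term, eBayes used a variance trend, and p-values were Benjamini-Hochberg adjusted over all tested genes at 0.05. Log2 changes understate the change of low genes, and folds are ratios of mean FPKM. In simulated data the fit recovered 38.8% of 1.5-fold, 82.8% of 2-fold and 99.2% of 4-fold changes, with 8.2 false calls on average. The simulated noise was independent between libraries and drawn from the spread that limma fitted. The false calls therefore do not cover effects that libraries share. Only genes with a mean log2(FPKM + 1) of at least 2 were changed there. The median member lay below that level, so recovery at its level is not known.

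Positions, sequences and overlaps came from RefSeq's TAIR10.1 by gene identifier (32835 of 33602 found, and all 3900 transposable element genes). Repetition is the share of a gene's 32-base words that occur again in the genome on either strand. A word repeated within the same gene counts too. Similar genes came from BLAST 2.17.0 and Biopython 1.88.

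The members and lists were chosen with earlier results of these data known. The text names every called member, the 10 highest, the 5 largest rises and falls, 3 members or rows on each side of the minimum, and the 3 silencing genes with the smallest p. Other names are Sadhu and MUSTANG members, neighbours and similar genes. Alternatives were pseudocounts of 0.5 and 0.1, no minimum, a minimum of 2, 3 other scalings, each library left out, a block for replicate number and eBayes with no variance trend.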

Additional observations from a re-analysis of the deposited data

How the results depend on the processing

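Of the 5 members lower and 1 higher in jmj28-3, 3 and 0 passed with no minimum and 1 and 0 with replicate number as a block. With a minimum of 2, the only lower member still tested was EXT11, which passed (1 lower), and AT4G28900 did not (0 higher). Quantile normalization and no variance trend each left 3 lower. Leaving out 1 library left 0 to 1 lower and 0 higher, with the lone library of a genotype assumed to vary like the others. Among members with under 10% repeated words, a split added after the data were seen, 3 were lower. Of the 6 called members, 6 also passed with a pseudocount of 0.5 or 0.1 or on the TPM scale, and 5, all but EXT11, under median-of-ratios scaling. The members' median log2 change of -0.0344 was 0.0182 under quantile normalization; the cause of these changes was not tested. Over all genes, 846 were higher and 767 lower. These were 526 and 351 with no minimum, 469 and 287 with no variance trend, 534 and 328 with the block, and 51 to 350 and 15 to 130 without 1 library. Deviations of same-numbered libraries correlated at -0.133 over tested genes. This rests on 1 replicate difference per genotype, so it cannot settle whether the numbers pair the libraries. The crossed pairing, added after the data were seen, gave 1158 higher and 1129 lower. Silencing genes stayed at 0 calls in all these settings. For single named genes, 316 of the alternative values stayed on the same side of the threshold, 37 lost the call and 1 (AT1G58561, crossed pairing) gained it. No called member changed sign, while AT3G28160, AT4G07507, AT1G35115 and AT1G34842, none of them called, did in at least 1 alternative. The summed difference of -27.4 FPKM ran from -40.4, without jmj28-3 replicate 2, to -14.4, without jmj28-3 replicate 1. Unknown depth limits what can be said of members near 0.5 FPKM.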
